A study of Mus musculus with 4 samples.

Results

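The regions described here are 1896 strong STAT3 binding peaks that were listed in injured mouse spinal cord and had no listed peak within 1 kb in the sham-operated cord. They were chosen by 3 conditions on the authors' peak lists: a position on chromosomes 1 to 19 or X, a score of 14.5 or more in the list of the injured cord, and no sham peak within 1 kb of either edge. The rule took 5.23% of the 36239 peaks on those chromosomes in the injured list. Because score and absence from the sham list chose these peaks, both are given below as descriptions only. A further 1716 peaks of the injured list reached the same score with a sham peak within 1 kb, and 24251 had a lower score and no sham peak within 1 kb. These 2 sets serve as the comparison for what the rule did not use.

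The study used chromatin immunoprecipitation with sequencing (ChIP-seq), in which DNA bound by a protein is pulled down with an antibody and sequenced, on a single-cell suspension prepared from the cord of C57BL/6 mice. Both conditions had the bone over the cord opened at thoracic level 9. Sham mice had that operation alone, and injured (SCI) mice then received a moderate contusion of 60 kdyn from an Infinite Horizons impactor. Tissue at the lesion centre was taken 7 days later, and a rabbit anti-STAT3 antibody was used, with an input library for each condition. Each condition was 1 library from 3 pooled mice, so no value below has a replicate check, no test between conditions was made, and the cells that carried a peak cannot be told apart. Intervals beside shares are exact (Clopper-Pearson) 95% intervals on counts of peaks, those beside medians are 95% intervals from binomial ranks of the sorted values, and both cover counting error only. The read depth behind the peaks is unknown, because the lists hold no read counts.

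STAT3 is a transcription factor that waits in the cytoplasm until a cytokine of the interleukin-6 family, leukaemia inhibitory factor or ciliary neurotrophic factor engages its receptor. Janus kinases then phosphorylate it, it pairs with a second STAT3 molecule, enters the nucleus and binds DNA at sites of the form TTCNNNGAA. In the injured spinal cord STAT3 is best known for its part in the reactive state of astrocytes that border the lesion, and it also acts in microglia, infiltrating myeloid cells and neurons.

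Few of the 1896 peaks lay close to a gene start, as in the comparison sets. Within 1 kb of a start lay 1.31% of members and 1.33% of strong peaks with a sham peak nearby. For weaker peaks without one it was 1.55%. The shorter windows described next were not counted for those sets. The sequence windows used here, from RefSeq on GRCm38.p6, covered 17274 of the 21631 coding genes (79.9%) with 250 bases before each start. Members reached into the window or the first bases of the transcript at 10 coding genes: Xcl1, Ralgapb, Dcun1d1, Hspb8, LOC115486439, Lrp2bp, Glyctk, Spock2, Slc35b1 and Ifit2. The STAT form TTCNNNGAA, which reads the same on both strands, occurred in 1397 of 21045 coding windows (6.64%) and in 1 of these 10, that of Slc35b1. The AP-1 form TGANTCA, also the same on both strands, occurred in 1299 windows (6.17%) and in 1 of the 10, that of LOC115486439.

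The 4 windows below are those of coding genes that lay outside the span of any coding gene and held bases of a strong injury peak. The peak at Lrp2bp was also centred outside coding genes, 254 bases before the start. Its window is not shown because it overlapped a coding span. Each is the 250 bases before the start on the gene's own strand, 5′ to 3′, and capitals mark the bases inside the peak. Xcl1 codes for lymphotactin, a chemokine that draws T cells and dendritic cells; its window is chr1:164935523-164935772 on the minus strand. Hspb8 codes for a small heat shock protein that works with the co-chaperone BAG3 in clearing damaged proteins; its window is chr5:116422865-116423114 on the minus strand. Spock2 (testican-2) is an extracellular matrix proteoglycan of brain; its window is chr10:60106007-60106256 on the plus strand. Slc35b1 is a nucleotide sugar transporter family protein of the endoplasmic reticulum; its window is chr11:95384606-95384855 on the plus strand.
Xcl1: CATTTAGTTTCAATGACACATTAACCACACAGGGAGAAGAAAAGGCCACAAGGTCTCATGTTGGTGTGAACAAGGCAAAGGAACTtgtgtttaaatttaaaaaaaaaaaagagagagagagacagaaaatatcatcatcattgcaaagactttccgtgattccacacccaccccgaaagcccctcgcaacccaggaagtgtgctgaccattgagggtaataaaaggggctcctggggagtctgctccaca
Hspb8: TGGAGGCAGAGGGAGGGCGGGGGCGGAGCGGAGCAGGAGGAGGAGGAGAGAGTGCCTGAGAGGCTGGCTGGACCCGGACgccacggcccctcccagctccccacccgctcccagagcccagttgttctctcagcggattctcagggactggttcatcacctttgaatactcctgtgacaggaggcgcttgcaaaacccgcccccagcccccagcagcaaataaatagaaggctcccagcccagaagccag
Spock2: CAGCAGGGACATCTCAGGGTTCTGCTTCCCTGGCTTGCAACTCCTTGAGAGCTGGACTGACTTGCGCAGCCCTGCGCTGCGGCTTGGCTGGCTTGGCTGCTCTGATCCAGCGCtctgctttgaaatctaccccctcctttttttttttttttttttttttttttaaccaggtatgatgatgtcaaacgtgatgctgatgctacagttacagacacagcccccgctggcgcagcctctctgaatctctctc
Slc35b1: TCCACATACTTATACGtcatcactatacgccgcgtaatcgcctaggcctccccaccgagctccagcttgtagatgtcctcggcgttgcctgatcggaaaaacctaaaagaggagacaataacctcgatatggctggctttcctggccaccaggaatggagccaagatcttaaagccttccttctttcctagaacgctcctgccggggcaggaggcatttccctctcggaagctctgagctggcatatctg

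The peaks covered 85 bases of the Xcl1 window, 79 of the Hspb8 window, 113 of the Spock2 window and 16 of the Slc35b1 window. Their centres lay 247, 253, 220 and 317 bases before the start, so in all 4 the peak sat in the far part of the window. Their scores were 17.9 for Xcl1, 16.9 for Hspb8, 17.0 for Spock2 and 20.6 for Slc35b1. The nearest sham peak was 8561 bp from the Xcl1 peak, 14163 bp from the Hspb8 peak, 3010 bp from the Spock2 peak and 29866 bp from the Slc35b1 peak. The single STAT form in the Slc35b1 window, ttcctagaa, began 66 bases before the start, outside the peak. The parts of the Xcl1, Hspb8 and Spock2 windows under the peak held neither form, which says only that those letters are not in these windows. The peak at Ifit2, an interferon-induced gene with tetratricopeptide repeats that limits viral translation, was centred 8 bases before the start with a score of 18.6.

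Members also lay within 5 kb of 9 microRNA genes, none of which entered the rule. No such count is given here for the other injury peaks, so 9 cannot be read as many or few. The 3 shown were chosen from the 9 after their values were seen, and not by a fixed rule. The members near the others had Cxcr1, Rab35, Gtf2i, Ctrb1, Pfas and Mafg as nearest coding genes. Capitals mark the seed, bases 2 to 8, through which a microRNA pairs with its targets. The 3 seeds differ from each other.
miR-135a-5p: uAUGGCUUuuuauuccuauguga
miR-139-5p: uCUACAGUgcacgugucuccag
miR-196a-5p: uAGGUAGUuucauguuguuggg

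The peak near Mir135a-1 had a score of 25.8, lay 4163 bp from the hairpin and fell inside Glyctk, which codes for glycerate kinase. The peak near Mir139 scored 17.9 and lay 1659 bp from the hairpin, with Pde2a, a phosphodiesterase of cyclic nucleotides, as the nearest coding gene. The peak near Mir196a-2 scored 19.8 and lay 2657 bp from the hairpin, beside Hoxc9, a homeobox gene of thoracic identity. No expression of these microRNAs was measured here.

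Most of the chosen scores were close to the threshold. The lowest was 14.5, the median 17.7 and the middle 50% ran from 15.7 to 21.2. A total of 1301 scores were below 20, 579 from 20 to below 50, 10 from 50 to below 100 and 6 at 100 or more. The next peaks on either side of the threshold show that it cuts a continuous range. The 3 lowest members were nearest to Arglu1 (14.515), Robo2 (14.510) and Nfia (14.509), and the 3 highest peaks below it without a sham peak nearby were nearest to Slc39a11 (14.497), Maip1 (14.497) and Slc30a10 (14.492). The deposited q-value did not rank them: its −log10 was 4.36 for every member.

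The highest scores stood far above the rest and most were far from coding genes. The top score, 1597, belonged to chr12:3109848-3110062, 137 kb from Rab10, which codes for a small GTPase of membrane traffic. The second, 226, was chr18:71210808-71211049, 42.7 kb from Dcc, the netrin receptor of axon guidance. The third, 185, was chr18:3005731-3005887, 117 kb from the vomeronasal receptor gene Vmn1r238. In that order these peaks were 215, 242 and 157 bp wide, against a usual width of 164 bp. Repeats under them were not examined. Next came peaks 35.3 kb from Pak3, a p21-activated kinase (128), 79.3 kb from Gm52008 (111), inside Dennd1b, a Rab35 exchange factor (108), and 196 kb from Akirin2, a nuclear regulator of inflammatory genes (92.0). The last of the 10 were 546 kb from the transporter gene Slco6d1 (90.2), 191 kb from Flrt2, a guidance and adhesion protein (65.0), and inside Eda2r, the receptor of ectodysplasin A2 (64.1). Only the Dennd1b and Eda2r peaks of these 10 lay inside a coding gene, and a gene named at such distances is the nearest one, not a shown target. The nearest sham peak to the Dennd1b member was 1197 bp away, close to the limit of the rule.

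Peak shape varied with score. Of the members, 1796 had the list's usual width of 164 bp, 98 were narrower and 2 wider. Among the top 20, 15 were narrower and 2 wider. The usual width was held by 84.5% of members with a score of 20 or more and by 99.4% of those below 20. No genome sequence was used here, so repeats under these peaks and motifs within them were not examined.

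The distance to the nearest sham peak, which the rule limited only at 1 kb, ran from 1.01 kb to 187 kb. Its median was 10.3 kb (95% interval 9.57 to 10.8) and its middle 50% ran from 4.52 to 20.7 kb. There was no sham peak within 10 kb of 967 members, 51.0%, against 52.9% of the weaker peaks that had none within 1 kb.

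**Figure D1:**
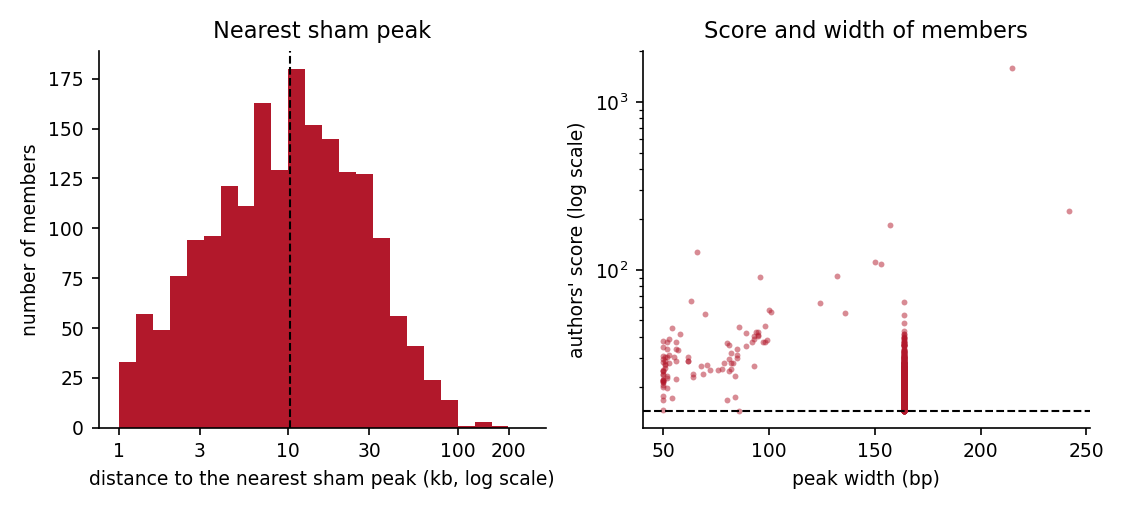
Left, number of members by distance to the nearest sham peak in kb on a log scale, with the median of 10.3 kb dashed. Right, the authors' score of each member on a log scale against peak width in bp, with the threshold of 14.5 dashed. Most members form a column at 164 bp, and the highest scores are off that column.

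Members lay inside genes about as often as both comparison sets. Compared with strong peaks that had a sham peak nearby, they lay over 50 kb away more often and just outside genes less often. The rule's sham condition alone splits these strong peaks, so where sham peaks lie enters that comparison, and its part was not tested. The centre of 823 members, 43.4% (41.2 to 45.7), fell between the first and last base of a coding gene. The share was 44.4% (42.0 to 46.8) for strong peaks with a sham peak nearby and 42.6% (42.0 to 43.2) for weaker peaks without one, so the 3 intervals overlap. A further 128 members, 6.75% (5.66 to 7.98), lay outside but within 5 kb, against 9.44% (8.10 to 10.9) of strong peaks with sham nearby. Another 386, 20.4% (18.6 to 22.2), lay 5 to 50 kb away. The remaining 559 members, 29.5% (27.4 to 31.6), were over 50 kb from any coding gene, above the 24.1% (22.1 to 26.2) of strong peaks with a sham peak nearby and close to the 31.6% (31.0 to 32.1) of weaker peaks without one. Members with a score of 20 or more and those below 20 gave similar shares: 43.4% of each lay inside a gene, and 30.4% and 29.1% lay over 50 kb away. The annotation used here gives gene spans without exons, so exon, intron and UTR cannot be told apart.

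**Figure D2:**
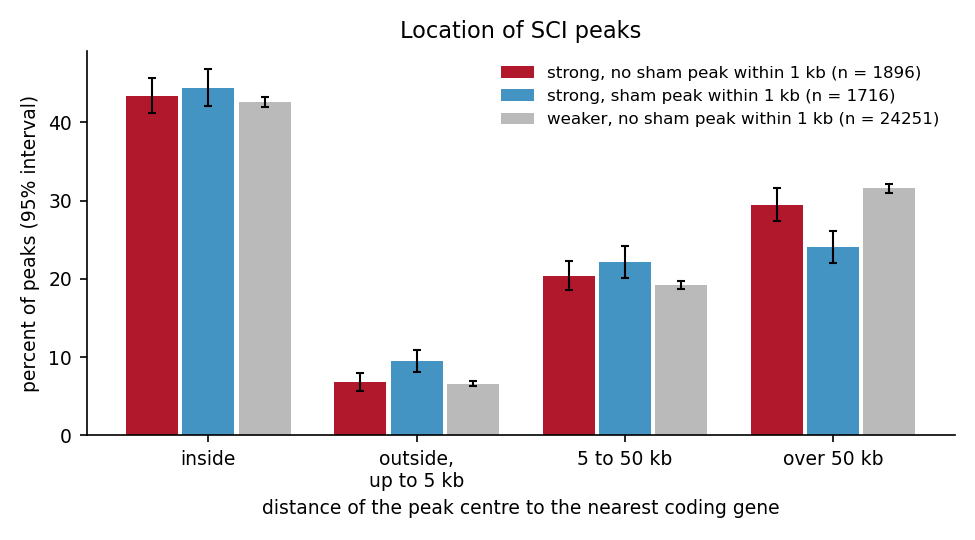
Percent of peaks of the injured cord by distance of the peak centre to the nearest coding gene, in 3 sets, with exact 95% intervals as error bars. Strong peaks without a sham peak nearby (29.5%) and weaker ones without one (31.6%) lie over 50 kb from genes more often than strong peaks with one (24.1%).

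The median distance to the nearest coding gene was 4.94 kb (95% interval 3.00 to 6.51), counting peaks inside a gene as 0. The farthest member was 1627 kb from any coding gene, and 103 members were over 500 kb away. Members were mostly alone: only 35 had another member within 10 kb, and the largest group held 3. By chromosome the members made up between 4.55% (3.56 to 5.73, chromosome 15) and 6.19% (5.05 to 7.51, chromosome 14) of the injured list, and these 2 intervals overlap.

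Within 1 kb of the first or last base of a coding gene lay 67 members, 3.53% (2.75 to 4.47), against 3.73% of strong peaks with sham nearby and 3.11% of weaker peaks. Within 1 kb of a start lay 24 of the 1835 members with start information, 1.31% (0.840 to 1.94), against 1.33% and 1.55%. The 10 highest at a gene end were led by Rpl26, a ribosomal protein of the large subunit that also binds p53 mRNA (36.6, 970 bp outside), and Usp7, a deubiquitinase that stabilises p53 and MDM2 (35.7, 902 bp from an end). Zmynd11, a reader of methylated histone H3.3 (33.1, 403 bp), LOC115486439 (32.3, 92 bp) and Gpr35, a G protein-coupled receptor of immune and gut cells (30.5, 28 bp), followed. Setbp1, whose product binds the SET oncoprotein (28.5), had a peak centred 2 bp from a gene end. The others were 4931414P19Rik (26.1, 872 bp), Ctnnd1, which codes for p120 catenin at adherens junctions (24.2, 343 bp), Arpc1a, a subunit of the actin-nucleating Arp2/3 complex (23.8, 543 bp), and Gm47978 (23.4, 494 bp). None of these 10 is in the list of STAT3 pathway genes. That list holds only 35 of the 21631 coding genes, so its absence from 10 genes says little.

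The 1896 members had 1620 different nearest coding genes, 7.49% of the 21631. Most of these genes, 1404, had 1 member, while 170 had 2, 33 had 3, 12 had 4 and 1 had 5. The 216 genes with 2 or more members are 0.999% of coding genes and took 492 members. Counting members within 10 kb of each other once left 207 such genes. In 43 of the 216 all members lay inside the gene, and in 106 none did.

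Ghitm, which codes for a mitochondrial inner membrane protein, had 5 members in 4 places, all outside the gene at 185 to 563 kb, with scores from 16.1 to 20.4. Sox2, a transcription factor of neural stem cells and astrocytes, had 4 members 31.7, 41.7, 221 and 482 kb away with scores of 15.0, 20.2, 25.5 and 28.1. Flrt2 had the score of 65.0 named above and 3 more members of 14.8 to 14.9, all outside. Hs3st1, which adds a rare sulfate to heparan sulfate, had 4 members, 1 inside at 27.2 and 3 outside at 25.2, 15.9 and 14.8, and no sham peak within 5 kb of the gene. The other 9 genes with 4 members were Cntnap5a and Epha6, of neuronal adhesion and ephrin signalling, Ctnna2 (the neural alpha-catenin), Pcdh10 (a protocadherin), Sorcs1 (a sorting receptor), Gpc5 (a glypican), Ptprn2 (a dense-core vesicle protein), Mgat4c (a glycosyltransferase) and Ipmk (inositol polyphosphate multikinase).

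Among genes with 3 members, Baz1a, a subunit of the ACF chromatin remodelling complex, stood out by spacing. Its 3 members lay inside the gene within 6.28 kb, at scores of 21.8, 21.9 and 26.4. By contrast the 3 members inside Lsamp, a limbic adhesion protein, were spread over 1836 kb of a gene of 2197 kb. The others named by the rule with 3 members were Nrxn3, a presynaptic neurexin, Celf2, a splicing regulator, Frem1, a basement membrane protein, Slco3a1, an organic anion transporter, and Apob, the apolipoprotein of low-density lipoprotein.

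**Figure D3:**
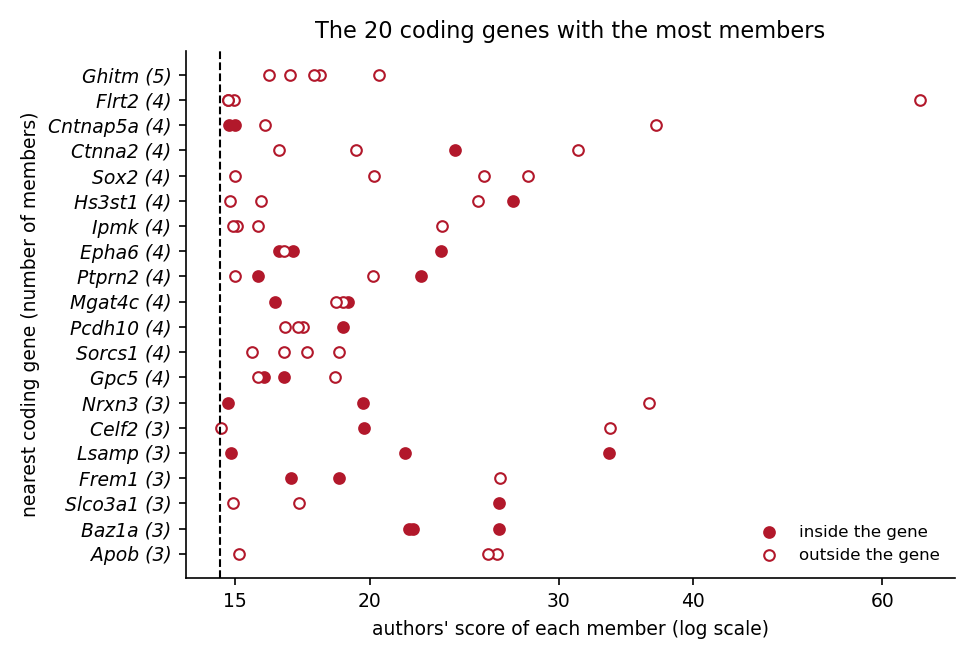
Authors' score on a log scale of each member at the 20 coding genes with the most members, with the number of members in parentheses. Filled points lie inside the gene and open points outside; the dashed line is the threshold of 14.5, and all 5 points of Ghitm are open.

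Long genes took more members. The median length was 17.3 kb for all coding genes, 57.8 kb for genes with a member and 134 kb for those with 2 or more. With coding genes cut into 10 classes by length, 2.03% of the shortest class had a member, 12.6% of the ninth and 24.8% of the longest. Length therefore moves with each count of genes below, and its part in those counts was not tested.

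**Figure D4:**
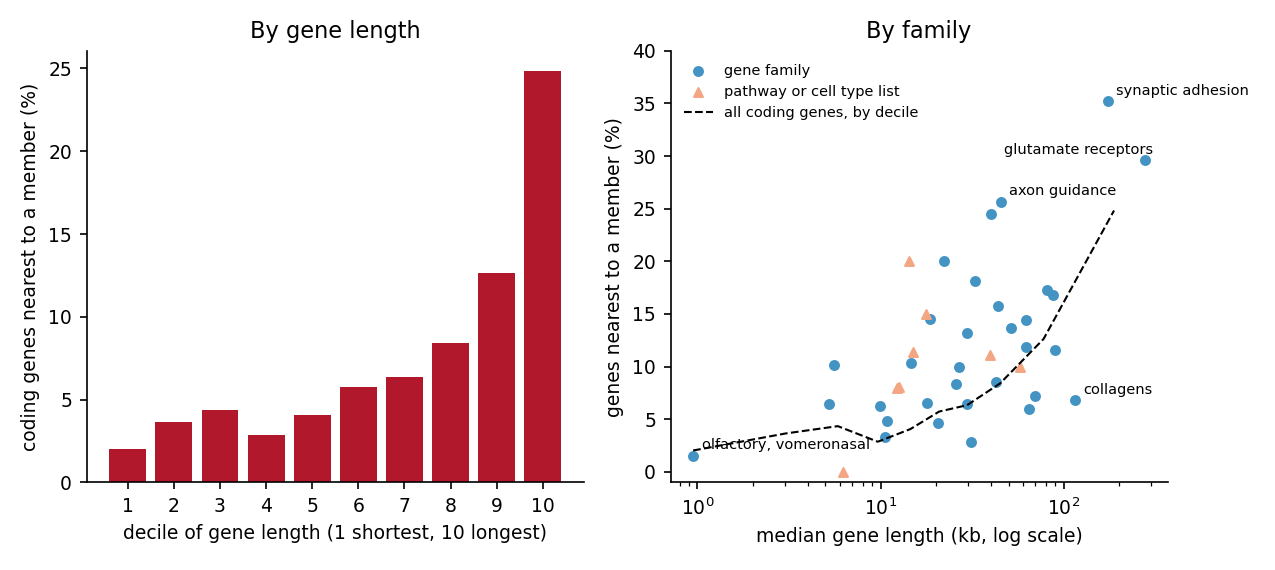
Left, percent of coding genes nearest to a member by decile of gene length, from 2.03% in the shortest to 24.8% in the longest. Right, the same percent for each gene family (circles) and list (triangles) against its median gene length in kb on a log scale, with all coding genes by decile as the dashed line; synaptic adhesion genes are highest at 35.2%.

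The absence of sham peaks next to a member did not usually extend to its gene. A sham peak lay in or within 5 kb of the nearest coding gene for 1549 members, 81.7% (79.9 to 83.4), against 82.3% of weaker peaks without a sham peak within 1 kb. No comparison is made with strong peaks that have a sham peak nearby, since their choice fixes much of that share. Of the 1620 genes, 308 had no sham peak, 19%, against 32.6% of all coding genes, whose median length is smaller. These 308 included Hs3st1, Vmn1r238 and Gm52008 named above, and Cdk1, the kinase that drives mitotic entry, with a member of 56.1 at 18.3 kb. Of the 1620 genes, 309 were also nearest to a strong peak with a sham peak nearby, which is 19.1% of the 1620 and 20.3% of the 1520 genes of those peaks. Over all coding genes 7.49% were nearest to a member and 7.03% to such a peak, and both counts move with gene length.

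Of 35 genes listed for JAK-STAT3 signalling or as established STAT3 targets, 4 were nearest to a member, 11.4%, where all coding genes gave 7.49%. Bcl2l1, whose product Bcl-xL blocks apoptosis, had a member of 25.8 inside the gene. Birc5, which codes for survivin, had one of 20.7 inside, 1756 bp from the gene's nearer end. Vegfa, the main angiogenic growth factor, had one of 20.7 at 13.3 kb, and Il6, the cytokine that activates STAT3, one of 15.5 at 56.7 kb. Vegfa and Il6 had no sham peak within 5 kb, while Bcl2l1 had 6 and Birc5 had 2. The other 31 genes of the list had no member. The list took 4 of the 1896 members, 0.211% (0.0575 to 0.539), against 0.186% (0.135 to 0.248) of weaker peaks.

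Marker lists of spinal cord cell types each held 0 to 4 genes with a member, against 7.49% of all coding genes. Of 37 reactive astrocyte genes 3 had one (8.11%): Sox9, a transcription factor of astrocytes, at 99.9 kb (17.2) and 326 kb (26.1), Steap4, a metalloreductase, at 61.2 kb (17.5) and Cp, ceruloplasmin, at 102 kb (16.2). Of 20 resting astrocyte genes 4 had one (20%), Sox9 again, Glul, glutamine synthetase, at 107 kb (25.5), Gja1, connexin 43, at 4.77 kb (14.7), and Nfia, a gliogenic factor, with 1 inside (14.5) and 1 at 36.8 kb (14.7). Microglia and macrophage genes had 2 of 25 (8%), with Arg1, the arginase of alternatively activated macrophages, at 36.6 kb (24.9) and a member inside P2ry12, the purinergic receptor of resting microglia (17.1). Oligodendrocyte genes had 3 of 20 (15%): Pdgfra of precursor cells at 152 kb (18.6), Mog of the outer myelin sheath at 6.16 kb (18.5), and Mbp, myelin basic protein, inside (17.6). Neuronal genes had 2 of 20 (10%), Elavl4 (16.5) and Syt1 (15.2), both inside, and vascular and fibroblast genes had 2 of 18 (11.1%), Flt1 inside (24.9) and Kdr at 30.4 kb (20.4), both receptors of vascular endothelial growth factor. None of the 14 neutrophil and lymphocyte genes had a member. These shares rest on at most 4 genes each.

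Synaptic adhesion genes, which hold neurons together and align their synapses, had the largest share of genes with a member among the 32 families read from gene symbols. It was 25 of 71 (35.2%), with a median gene length of 174 kb. That rank depends on the threshold: at a score of 12 or more glutamate receptors led with 51.9% against 49.3%, and at 20 or more with 18.5% against 14.1%. Besides Flrt2 they included Cntnap5a, 1404 kb from its highest member (37.0), Nrxn3 at 17.9 kb (36.4) and Lsamp inside (33.4). The pattern for this family also takes Lrrc46, which is not known as a synaptic adhesion gene. Axon guidance genes had 19 of 74 (25.7%): Dcc, then Robo1, a Slit receptor, inside (37.0), Slit3, a Slit ligand, inside (26.7), and Efna5, an ephrin, inside (24.5). Cadherins and protocadherins had 19 of 110 (17.3%), with Pcdh18 at 40.3 and 28.6 (549 and 252 kb away), Cdh9 at 29.8 (162 kb) and members inside Cdh18 (26.4) and Pcdh15 (24.6, 15.7 and 14.6). Within the longest class of coding genes, where 24.8% had a member, the counts were 19 of 39 synaptic adhesion genes (48.7%), 15 of 31 axon guidance genes (48.4%) and 14 of 45 cadherins (31.1%). Growth factor genes (6 of 11, 54.5%) and matrix proteases (9 of 17, 52.9%) had higher shares in that class. Collagens (3 of 23, 13.0%) and sodium, calcium and TRP channels (3 of 29, 10.3%) had lower ones.

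Counted by peaks instead of genes, synaptic adhesion and axon guidance genes had shares close to those of the weaker injury peaks. Synaptic adhesion genes were nearest to 48 members, 2.53% (1.87 to 3.34), and to 2.89% (2.69 to 3.11) of weaker peaks without a sham peak nearby. Axon guidance genes took 27 members, 1.42% (0.941 to 2.07), against 1.28% (1.14 to 1.43) of weaker peaks. In all 40 families and lists the interval of the members' share overlapped that of the weaker peaks. Overlap of intervals alone does not show equal shares. The largest ratios among families with 20 or more members were those of matrix proteases, 20 members or 1.05% (0.645 to 1.62) against 0.548% (0.459 to 0.650), and chromatin modifiers, 22 members or 1.16% (0.729 to 1.75) against 0.656% (0.558 to 0.765). For both, the members' share was above the whole interval of the weaker peaks, and the difference was not tested. That was not particular to them: potassium channels, proteoglycans and G protein-coupled receptors, among others, were also above it. Synaptic adhesion genes, cadherins, solute carriers and olfactory receptors, among others, were below it.

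**Figure D5:**
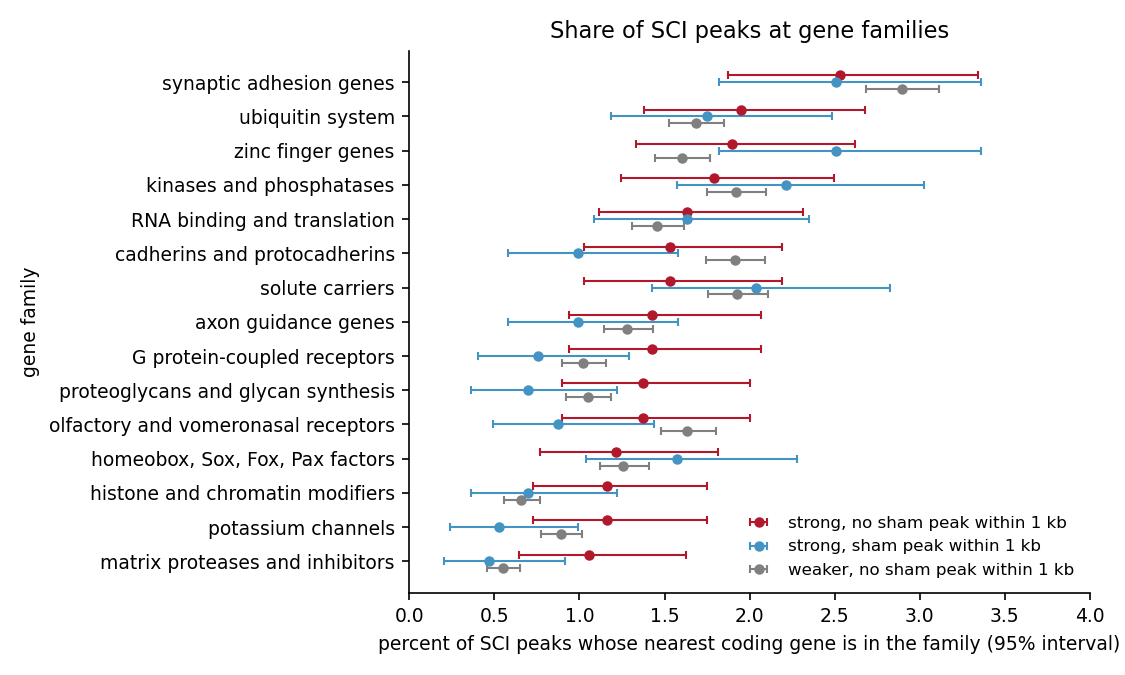
Percent of peaks of the injured cord whose nearest coding gene is in each of the 15 families with the most members, in 3 sets of peaks, with exact 95% intervals. The intervals of strong peaks without a sham peak nearby overlap those of weaker ones in every family shown, including synaptic adhesion genes at 2.53% and 2.89%.

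Glutamate receptors, which carry excitatory transmission, had the next share at the threshold used, 8 of 27 genes (29.6%), with 2 members inside Grid1, the delta receptor that binds cerebellin (29.4 and 18.4), Grik1, a kainate receptor subunit (25 at 85.3 kb and 15.2 inside), Grin3a, an NMDA receptor subunit, inside (23.1) and Grm7, a presynaptic metabotropic receptor, with 3 (21.8 at 233 kb, 19.8 and 17.6 inside). GABA and glycine receptors had 3 of 26: Gabra6, Glra2 and Gabrg3. Potassium channels had 17 of 94 (18.1%), among them Kcnk10, a two-pore channel, inside (30.1), and Kcnt2, sodium-activated, with a member inside (27.8). Sodium, calcium and TRP channels had 5 of 69 (7.25%), close to the 7.49% of all coding genes, with members inside Nalcn, the sodium leak channel (27.2), and Cacna1c, an L-type calcium channel (23.7). G protein-coupled receptors had 23 of 158 (14.6%), with Adgrd1 inside (33.7) and Htr1a, a serotonin receptor, at 128 kb (33.2).

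Growth factor genes had 13 of 53 with a member (24.5%). Pdgfc, a platelet-derived growth factor, had one of 38.9 inside, Nrg3, a neuregulin, 32.1 at 424 kb, Fgf9, a fibroblast growth factor, 28.2 at 205 kb, and Erbb4, a neuregulin receptor, 27.3 inside. TGF-beta and BMP genes had 7 of 53 (13.2%), of which the 4 highest were all inside their gene: Acvr1 (28.3), Bmpr1b (21.5), Bmpr2 (21.5), all BMP receptors, and Tgfb1 itself (21.4). Wnt genes had 5 of 50, with 2 members inside Tcf7l1, a repressor of Wnt targets (23.2 and 21.4), Wnt5a at 56.6 kb (22.2) and Fzd4, a Frizzled receptor, at 17.8 kb (22.0).

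The 4 families of immune ligands and receptors had between 2.86% and 6.45% of genes with a member, where all coding genes had 7.49%. This depended in part on the setting. Chemokines had 11.3% against 8.87% when only sham peaks at or above the sham median score barred a peak. The TNF superfamily had 4.65% against 3.99% with no sham peak within 10 kb. Under each of these settings the other immune families stayed below all coding genes. Interleukins, interferons and their receptors had 4 of 119 (3.36%): Ifnlr1 at 54.5 kb (24.7), Il1rapl1 inside (18), Il20ra inside (16.9) and Il6. Il1rapl1, taken here by its symbol, is also counted among the synaptic adhesion genes. Chemokines and their receptors had 4 of 62 (6.45%): Xcl1, Cxcl12, the ligand of CXCR4, at 203 kb (15.6), Cxcr1 at 15.7 kb (15.5) and Ackr3, a scavenger of CXCL12, at 109 kb (15.5). The TNF superfamily had 2 of 43: Tnfsf13b, the B cell factor BAFF, at 28.9 kb (21.9) and Tnfrsf21, death receptor 6, with 2 at 23.2 and 23.7 kb (15.6 and 16.9). Of 35 toll-like and NOD-like receptor genes 1 had a member, inside Nod1 (17.7). Median gene length was 10.6 kb for interleukins and 5.24 kb for chemokines, against 17.3 kb for all coding genes. Counted by peaks, chemokine genes took 0.211% (0.0575 to 0.539) of members and 0.153% (0.107 to 0.210) of weaker peaks, interleukin genes 0.211% and 0.445% (0.365 to 0.537), with overlapping intervals.

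Extracellular matrix genes differed among themselves. Matrix proteases and inhibitors had 17 of 85 genes with a member, with Adam21 at 1.88 kb (38.4), Adamts6 at 6.31 kb (35.7), Mmp24 at 9.39 kb (35.1) and Mmp7 at 3.62 kb (26.7). Those 4 lay outside their genes, within 10 kb. Proteoglycans and glycan synthesis had 14 of 97 (14.4%), with Gpc6, a glypican, inside (23.4 and 19.8), Ext1, which polymerises heparan sulfate, inside (22.4), and Chst15, which sulfates chondroitin, at 47.0 kb (21.4). Integrins and laminins had 5 of 42 (11.9%), with 2 inside Lama2, the muscle and glial laminin chain (17.8 and 15.6); Itgbl1, taken by the pattern, resembles integrins without being one. Collagens had 3 of 44 (6.82%) although their median length was 114 kb: Col12a1, Col26a1 and Col5a2.

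Nuclear factors were mixed. Histone and chromatin modifiers had 18 of 114 (15.8%), led by Brd1, a bromodomain scaffold of histone acetyltransferases, at 3.50 kb (41.4), and by members inside Smarcc1, a BAF complex subunit (40.7), Setd2, the H3K36 trimethylase (25.7), and Kdm2b, an H3K36 demethylase (25.6). Homeobox, Sox, Fox and Pax genes had 18 of 177 (10.2%), with Sox2 and Sox9 above, Dlx2, of interneuron development, at 51.4 kb (24.9) and Foxo1 at 209 kb (21.2). AP-1, Klf, Ets and Stat genes had 10 of 97 (10.3%), with Klf14 at 53.0 kb (31.4), Klf8 inside (22.3) and Atf6, a sensor of endoplasmic reticulum stress, inside (21.0); Irf2bpl, at 6.60 kb (21.6), is a binding partner and not an interferon regulatory factor. Zinc finger genes had 30 of 461 (6.51%).

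Signalling and housekeeping families included several of the higher scores. Among kinase and phosphatase genes, 25 of 293 (8.53%), the highest after Cdk1 were Ptprm, an adhesive phosphatase, inside (35.7), Ppp2r5c, a subunit of protein phosphatase 2A, at 73.1 kb (30.7), and Prkar1b, a regulatory subunit of protein kinase A, inside (28.9). Phosphodiesterases, cyclases and G proteins had 13 of 95 (13.7%), with members inside Pde4d (29.4) and Rgs6 (27.3). RNA binding and translation genes had 26 of 415 (6.27%), among them members inside Polr2b, a subunit of RNA polymerase II (57.8), and Cnot8, a deadenylase (54.3), and one 137 kb from the splicing factor Rbfox1 (45.3). The ubiquitin system had 33 of 394 (8.38%), cytoskeleton genes 13 of 268 (4.85%) with Ank3, the ankyrin of the axon initial segment, inside (39.4), solute carriers 25 of 389 (6.43%) and ABC transporters 3 of 50. The cytoskeleton pattern also took Map2k6 and Map4k3, which are counted among the kinase genes too. Olfactory and vomeronasal receptors, with a median length of 0.951 kb, had 23 of 1480 (1.55%). The families and lists together covered 5746 coding genes, 452 of them with a member, and 1168 of the 1620 genes were in none.

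The sham list was the longer of the pair, with 89039 peaks against 36411 in the injured list, and 88757 and 36239 of these lay on chromosomes 1 to 19 and X. A shorter injured list offers fewer peaks to any set drawn from it, and the part of library depth in either count was not tested. Scores equal to 2√n − 1 for a whole number n, within 0.0001, made up 13.1% of members, 4.60% of strong peaks with a sham peak nearby and 42.7% of weaker peaks without one. On sequences outside the chosen chromosomes the injured list held 72 peaks at or above the threshold, of which 2 had no sham peak within 1 kb.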

How the data were processed

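Sham and injured spinal cord each gave 1 STAT3 peak list from 1 library of 3 pooled mice; the input libraries have no list here. The submitters' processing notes name Bowtie2 and the mm10 build; no source used here names the peak caller, its control or its cut-off. For every peak the authors deposited a score of unstated scale and the −log10 of a q-value, both taken unchanged.

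Not every gene and family that the naming rule chose is reported here. Members, families and lists were chosen with earlier results of these data known. Coding genes, starts and sequences came from RefSeq, GRCm38. A peak belongs to the coding gene nearest its centre, and sham distances run edge to edge. A sham peak counts as at a gene within 5 kb of it. Coordinates count from 1. The promoter windows leave out chromosome 18, so shares by gene start do too. The text names the nearest genes of the 10 highest members, of the 10 highest within 1 kb of a gene end and of the 3 on each side of the threshold, the 20 genes with the most members, and up to 4 genes per family or list by score. Families were read from symbol patterns. Scripts ran in Python 3.11.15 with pandas 2.3.3, numpy 2.4.6, matplotlib 3.10.9 and scipy 1.17.1. On simulated peaks the distance to sham, the inside call and the nearest gene were each recovered in 500 of 500 cases. With 1 library per condition no test was made; exact 95% binomial intervals stand for counting error. The alternatives were other score thresholds and sham distances, stronger sham peaks only, the usual width only, all annotated genes, and members without scores of the root form.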

Additional observations from a re-analysis of the deposited data

How the results depend on the processing

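With 1 library per condition nothing could be left out as a replicate, and no paired analysis was possible because there were no replicates to pair. The number of members was 3408 at a score of 12 or more, 595 at 20 or more, and 967 with no sham peak within 10 kb. Under those 3 settings, in that order, the nearest coding genes numbered 2652, 560 and 864, those with 2 or more members 524, 32 and 94, members with a sham peak at the gene 2806, 486 and 738, and members at the families and lists 1019, 187 and 282. Coding promoter windows with a member fell to 3 at a score of 20 or more and 4 with the 10 kb distance. The 10 kb distance also gave 39.3% of members inside a coding gene, 35.2% over 50 kb away, a median of 10.8 kb to the nearest coding gene and of 20.3 kb to the nearest sham peak. With all annotated genes in place of coding ones, 50.7% lay inside a gene, 7.01% within 1 kb of a gene end and 11.6% over 50 kb away, the median distance was 0 kb, and 102 genes had 2 or more members. The median distance to sham was 8.72 kb when only overlapping sham peaks barred a peak and 7.33 kb when only sham peaks at or above the sham median score did. Leaving out scores of the root form, an alternative chosen after seeing the data, and keeping the usual width only moved none of these beyond the limits set. Of the 163 genes chosen by the naming rule, 81 had no member left with the 10 kb distance, 35 at a score of 20 or more, 30 at the usual width and 11 without root-form scores. Of the top 10 members, 7 stayed with the 10 kb distance and 1 at the usual width. Depth is unknown, so a peak missing from the sham list is not shown to be absent from sham cord.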
